A study of Mus musculus with 12 samples.

Results

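The Eph receptors and their ephrin ligands were described in mouse hearts under pressure overload and a change of diet, with the receptor gene Epha4 as the starting point. The genes are the receptors Epha4, Epha7, Ephb1, Ephb3 and Ephb4, the ligands Efna1 and Efna5 of the A class, and the ligands Efnb1, Efnb2 and Efnb3 of the B class, taken by their symbols. They are 10 of 16514 genes listed in at least 1 table, and 10 of the 17 Eph and ephrin genes among them. Epha4 was chosen by its measured fall after pressure overload on one of the diets, and the other 9 genes because they belong to the same family. The values that chose Epha4, those of transverse aortic constriction (TAC) on the BCAA-free diet, are therefore given below as a description with no test. The same holds for Epha4 in both comparisons of diets, which share libraries with that contrast.

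RNA came from hearts of male C57Bl/6J mice 12 weeks old, with no genetic change named in the labels. BCAA-free TAC hearts came from mice on a diet without the branched-chain amino acids leucine, isoleucine and valine that underwent TAC, a narrowing of the aorta which loads the left ventricle with pressure. BCAA-free sham hearts came from mice on that diet after a sham operation, and control TAC and control sham hearts from mice on a control diet that contained these amino acids. Every diet carried 1% propionate, began 4 days before surgery and went on until the hearts were taken 1 week after it, so no group was free of propionate or of an operation. Each of the 4 groups had 3 libraries. The labels do not say that these came from separate mice, so the spread that p-values are set against may be technical.

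Eph receptors are receptor tyrosine kinases that bind ephrins held on the surface of a neighbouring cell. Signals run forward into the cell with the receptor and in reverse into the cell with the ligand, and they change adhesion, repulsion and the actin cytoskeleton. A-class ephrins are tied to the membrane by a lipid anchor and B-class ephrins span it. Epha4 binds ephrins of both classes, which few Eph receptors do. In the vessels of the heart, as elsewhere, ephrin-B2 marks arterial endothelium and EphB4 venous endothelium. In mouse cardiomyocytes, ephrin-B1 has been placed at the lateral membrane.

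The libraries held 29929161 to 46101244 reads assigned to genes. The label of the tissue was borne out by heart muscle transcripts, since all 10 cardiomyocyte markers were listed and summed to 89053 to 112521 CPM per library (CPM being reads scaled to a common library size). A pair of control TAC libraries stood apart in transcripts that are not of this family. RNA polymerase III transcripts summed to 121.3 CPM in control TAC replicate 2 and to 1.49 to 26.6 CPM in the other 11 libraries. Liver transcripts listed in every library summed to 75.3 CPM in control TAC replicate 3 and to 14.3 to 33.7 CPM in the others. For results that rest on control TAC hearts, values without both are given too, 1 control TAC library then being assumed to vary like the others. That library, control TAC replicate 1, stood apart too, with 16.4 CPM of epicardial markers against 8.48 and 8.10 CPM in the other control TAC libraries, and with the highest fibroblast and macrophage sums of its group. The BCAA-free groups were uneven as well. BCAA-free TAC replicate 2 held 16.2 CPM of epicardial, 684 CPM of atrial and 34.0 CPM of adipocyte markers. Replicates 1 and 3 of that group held 9.40 and 6.89 CPM, 393 and 335 CPM, and 8.73 and 6.44 CPM of these. BCAA-free sham replicate 1 held 22.8 CPM of adipocyte markers, against 9.28 and 7.77 CPM in the other BCAA-free sham libraries. The cause was not tested. All 10 genes passed the filter on low values (a mean of at least 10 normalised reads) in every comparison, with 124 reads in the shallowest value (Ephb1) and 5564 in the deepest (Efnb3).

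The 10 genes lie on 10 different chromosomes. In the GENCODE M21 annotation of GRCm38, Epha4 (ENSMUSG00000026235) spans chromosome 1 from 77367185 to 77515088 on the minus strand, Efnb2 (ENSMUSG00000001300) chromosome 8 from 8617434 to 8661242 on the minus strand, and Efnb3 (ENSMUSG00000003934) chromosome 11 from 69554092 to 69560205 on the minus strand. Efnb1 (ENSMUSG00000031217) spans chromosome X from 99136130 to 99148991 and Ephb4 (ENSMUSG00000029710) chromosome 5 from 137350109 to 137378669, both on the plus strand. On the plus strand too, Epha7 (ENSMUSG00000028289) spans chromosome 4 from 28813131 to 28967499 and Ephb3 (ENSMUSG00000005958) chromosome 16 from 21204755 to 21223305. On the minus strand are Ephb1 (ENSMUSG00000032537) on chromosome 9 from 101922128 to 102354693, Efna1 (ENSMUSG00000027954) on chromosome 3 from 89271733 to 89281142 and Efna5 (ENSMUSG00000048915) on chromosome 17 from 62604184 to 62881317. All are protein-coding. The exons of 8 of the 10 genes overlap no other annotated gene. Those of Ephb1 and Ephb4 each overlap 1, and since the sources used here do not say whether reads were counted by strand, their values are less certain. The partner of Ephb4 is Zan, which had at most 0.755 CPM in the 9 libraries that list it.

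The stretches just before the start sites of Epha4 and Efnb2 are shown. Of the 10 genes, these were the receptor and the ligand with the largest log2 changes after TAC on the BCAA-free diet. That contrast chose Epha4, so the pick is a description. On the control diet the TAC and sham libraries of Efnb2 overlapped, and no stretch was held for Efnb3. Given are the 250 bases before each start in RefSeq, on GRCm38.p6, read 5′ to 3′ on the gene's own strand. Capitals mark matches, on either strand, to the GC box GGGCGG (bound by Sp factors), the CCAAT box CCAAT (bound by NF-Y) and the half-site TGACG (bound by CREB and ATF factors). The E-box CACGTG was searched as well.
Epha4, chr1:77515089-77515338, minus strand: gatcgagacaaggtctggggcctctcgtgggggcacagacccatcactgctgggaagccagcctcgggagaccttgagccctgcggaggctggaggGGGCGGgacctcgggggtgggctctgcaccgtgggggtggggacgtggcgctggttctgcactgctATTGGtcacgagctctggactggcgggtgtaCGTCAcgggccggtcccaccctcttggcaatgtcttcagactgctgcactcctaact
Efnb2, chr8:8661243-8661492, minus strand: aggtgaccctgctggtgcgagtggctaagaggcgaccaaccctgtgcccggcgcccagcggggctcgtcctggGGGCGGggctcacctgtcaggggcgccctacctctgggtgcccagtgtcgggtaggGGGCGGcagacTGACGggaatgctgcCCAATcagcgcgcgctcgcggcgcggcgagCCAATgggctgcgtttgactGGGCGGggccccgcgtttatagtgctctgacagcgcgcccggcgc
Epha4 has 1 GC box, 1 CCAAT box in reverse and 1 TGACG half-site in reverse, and Efnb2 has 3, 2 and 1. A 300-base window, 250 bases before to 50 after the start, was held for 9 of the 10 genes. In that window a GC box stood in 7 of the 9 genes, against 38.2% of 27025 mouse genes, a CCAAT box in 6 against 41.1%, a TGACG half-site in 5 against 23.0% and CACGTG in 0 against 8.09%. Matches of different motifs may share bases. Over the windows of the 9 genes GC content ran from 55.7% (Ephb1) to 73.3% (Efna5), with 64.0% for Epha4 and 72.3% for Efnb2. The median was 52.7% over 32851 windows, and the shares of mouse genes above were not matched for GC content. A match is a run of letters and says nothing of binding in these hearts.

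Epha4 had its highest level in BCAA-free sham hearts and its lowest after TAC on both diets. It measured 25.8, 26.8 and 22.7 CPM in BCAA-free TAC libraries, against 49.8, 55.6 and 47.8 CPM in BCAA-free sham libraries. Control TAC libraries held 23.3, 24.1 and 27.3 CPM of Epha4, against 37.3, 36.1 and 33.3 CPM in control sham libraries. The group means were 25.1 ± 2.15, 51.0 ± 4.08, 24.9 ± 2.08 and 35.6 ± 2.01 CPM (SD, n = 3 each) in that order. From the top, BCAA-free sham libraries lay above all control sham libraries, which lay above all TAC libraries, while the 2 TAC groups overlapped and did not differ beyond their spread. Of the 10 genes, Epha4 varied most between libraries, its highest level being 2.45 times its lowest, followed by Ephb1 at 2.08 times and Efna1 and Efnb2 at 1.81 times each. Both ends of the range of Epha4 are libraries of the contrast that chose it, so its place in this order is a description. Levels in CPM were scaled between libraries by the TMM method.

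**Figure D1:**
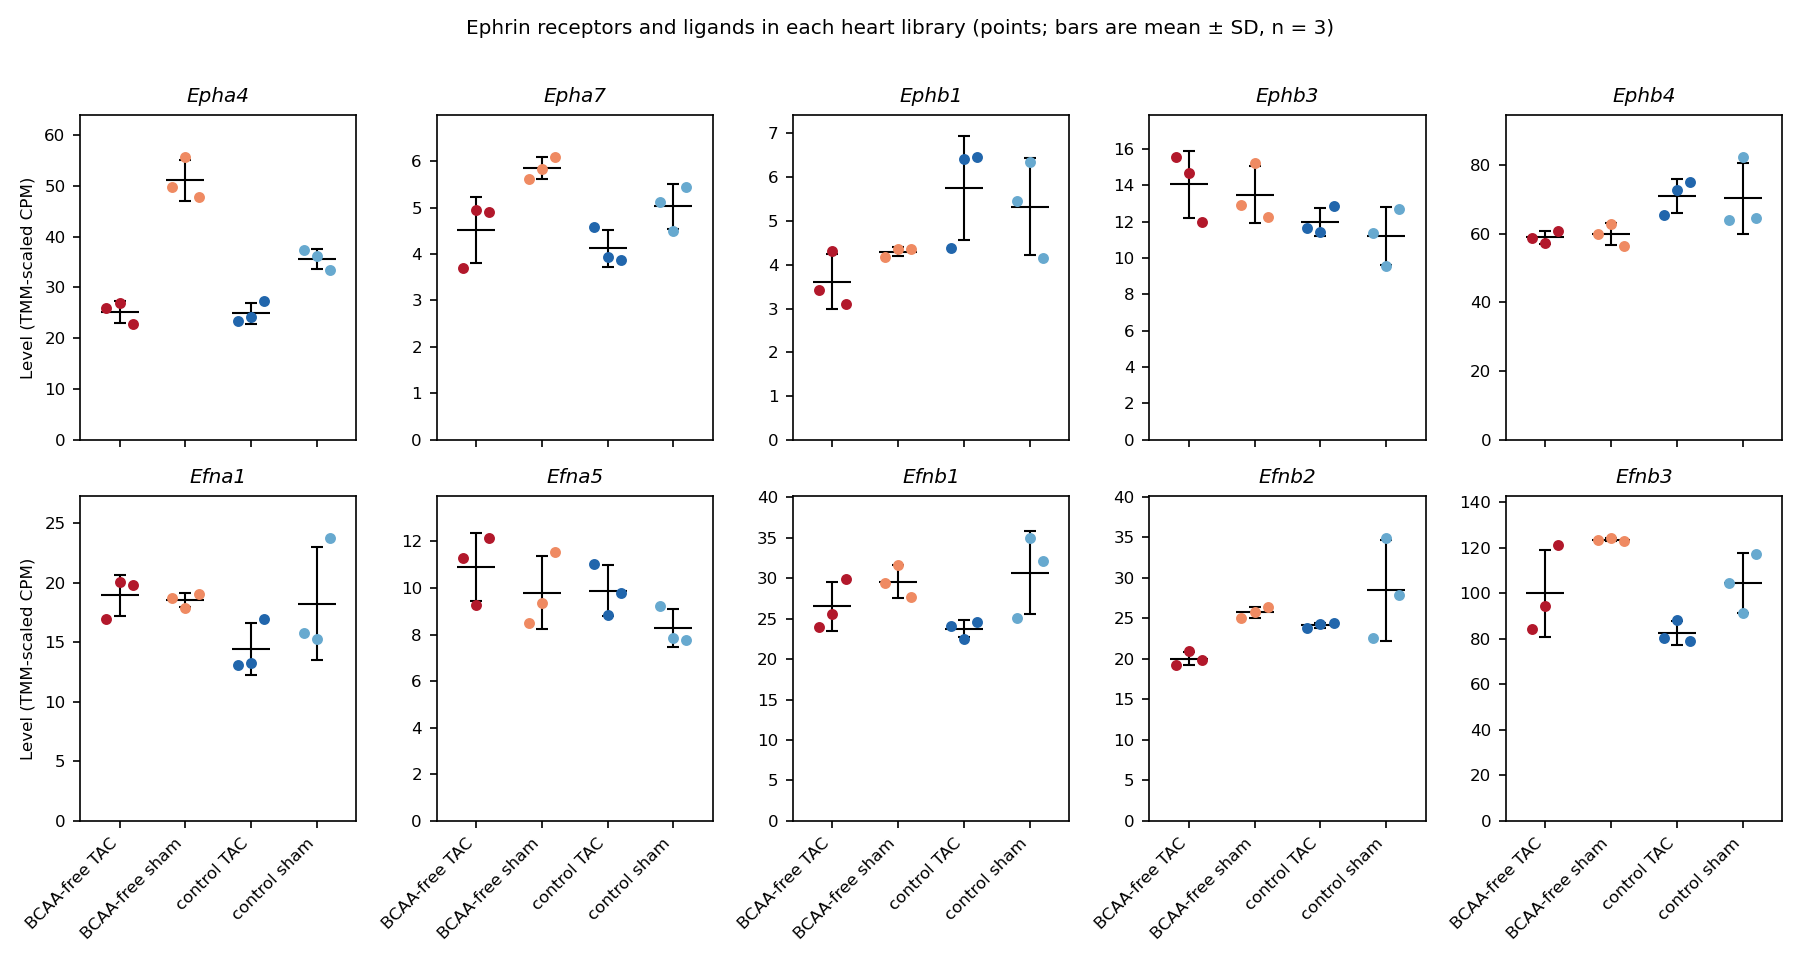
Levels of the 10 genes (TMM-scaled CPM, linear axes from 0) in each of the 12 libraries, with points for libraries and bars for mean ± SD (n = 3), BCAA-free TAC at the left and control sham at the right. Epha4 lies at 22.7 to 27.3 CPM in both TAC groups, at 33.3 to 37.3 CPM in control sham and at 47.8 to 55.6 CPM in BCAA-free sham libraries.

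Per exon length, a ligand led the family. Efnb3, a ligand known from axon guidance at the midline of the nervous system, averaged 32.2 CPM per kilobase over the 12 libraries, and Ephb4 was the highest receptor at 14.0 CPM per kilobase. The ligands Efna1 (9.59 CPM per kilobase) and Efnb1 (8.0) came next, then Epha4 (4.24), Efnb2 (3.59), Efna5 (2.41) and Ephb3 (1.91). Ephb1 (0.678) and Epha7 (0.493) were the lowest of the 10. On this scale Epha4 was the second highest receptor. The 7 other family genes in the tables had lower means than Efnb2 on this scale, led by Epha2 (2.52 CPM per kilobase) and followed by Efna2 (0.535), Ephb6 (0.480), Epha1 (0.378), Efna4 (0.240), Ephb2 (0.0557) and Epha3 (0.0329). Epha5, Epha6, Epha8, Epha10 and Efna3 are not analysed here. In bulk samples such as these, fewer cells of a type and less RNA per cell cannot be told apart.

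**Figure D2:**
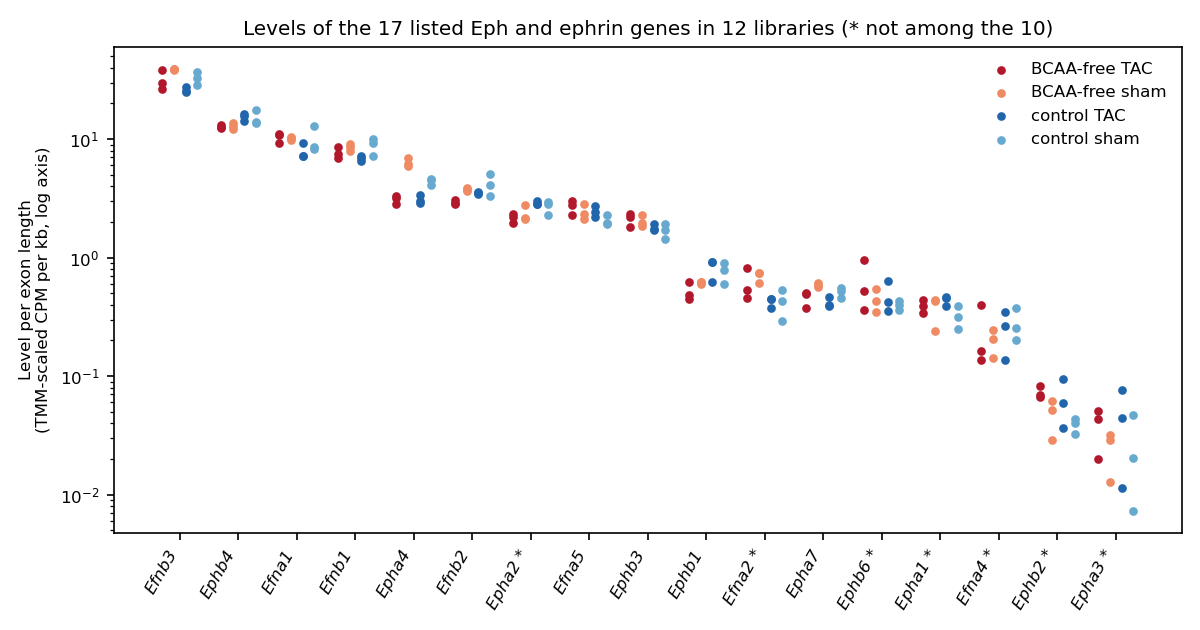
Levels per exon length (TMM-scaled CPM per kb, log axis) of the 17 Eph and ephrin genes in the tables, 1 point per library, coloured by group and ordered by the mean over 12 libraries, with a star on genes that are not among the 10. Efnb3 is highest at 24.8 to 39.0 CPM per kilobase, and in Epha4 the BCAA-free sham points stand above the other groups.

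TAC on the control diet shares no library with the contrast that chose Epha4, and in it Epha4 fell. The genes were chosen with earlier results of these data known, so the choice may not be wholly independent of this comparison. The level was 0.700 of that in control sham hearts (log2 change -0.51 ± 0.08 SE, n = 3 per group, adjusted p = 0.0135 by limma over all genes), and all 3 control TAC libraries were below all 3 control sham libraries. Epha4 was the only one of the 10 that passed the threshold of an adjusted p under 0.05, which 5.34% of the 15873 genes tested did, 1.94% as lower. In the authors' deposited table the adjusted p of Epha4 was 4.1e-05. Without control sham replicate 1 the change was -0.48 and the call was lost (limma adjusted p = 0.0515). In that fit 300 of all genes passed, against 848 with every library. Over all alternatives the change of Epha4 ranged between -0.60 and -0.47. Its adjusted p was 4.17e-05 by DESeq2, and 0.0154 to 0.0515 by limma without single libraries. Leaving out control TAC replicates 2 and 3 gave -0.60 (adjusted p = 0.0246 with the filter on the libraries that remain, and 0.0770 with the filter over all 6 libraries).

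The B-class ligands Efnb1 and Efnb3 lay lower in every control TAC library than in any control sham library but did not pass the threshold. Efnb3 measured 80.5, 88.4 and 78.8 CPM in control TAC hearts, against 104.6, 91.1 and 117.4 CPM in control sham hearts (log2 -0.33 ± 0.09, limma adjusted p = 0.0741). DESeq2 on the recovered reads gave Efnb3 an adjusted p of 0.0191, and limma gave 0.0331 without control sham replicate 2. Efnb1, the ephrin of the cardiomyocyte lateral membrane, measured 24.1, 22.5 and 24.6 CPM in control TAC hearts, against 25.0, 34.9 and 32.1 CPM in control sham hearts (log2 -0.35 ± 0.12, limma adjusted p = 0.112). For Efnb1 the adjusted p was 0.0451 by DESeq2 and 0.0362 by limma without control sham replicate 1. Without control TAC replicates 2 and 3 the changes were -0.37 (limma adjusted p = 0.169) for Efnb3 and -0.33 (0.339) for Efnb1. Groups did not overlap, with the TAC group lower, in 3 of the 10 genes and in 13.6% of all genes tested.

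The other 7 genes had overlapping groups in control TAC and control sham hearts. Of these receptors, Epha7, known for repulsive guidance of axons, had a log2 change of -0.28 ± 0.14 (limma adjusted p = 0.287). Ephb3, which helps to sort cells in the intestinal crypt, had +0.10 ± 0.12 (limma adjusted p = 0.664). For Ephb1, a guide of retinal axons, and Ephb4, the venous receptor, the changes were +0.11 ± 0.20 and +0.02 ± 0.10 (limma adjusted p = 0.795 and 0.918), and both turned negative without control TAC replicates 2 and 3 (-0.25 and -0.09). Without these libraries the other 5 genes had the same signs, with adjusted p of 0.238 to 0.889 by limma. Among the ligands, Efna1, first found as a gene induced by tumour necrosis factor in endothelium, had -0.32 ± 0.17 (limma adjusted p = 0.323). Efna5, a ligand of retinal mapping, had +0.25 ± 0.12 (limma adjusted p = 0.265). Efnb2, the arterial ligand, measured 23.8, 24.2 and 24.4 CPM in control TAC hearts, inside the range of 22.5, 34.9 and 27.9 CPM in control sham hearts (log2 -0.21 ± 0.14, limma adjusted p = 0.396).

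On the BCAA-free diet, whose values chose Epha4, its level after TAC was 0.490 of that in BCAA-free sham hearts (log2 -1.03 ± 0.09 SE). Efnb2 measured 19.3, 20.9 and 19.9 CPM in BCAA-free TAC hearts, against 25.0, 25.8 and 26.4 CPM in BCAA-free sham hearts (log2 -0.37 ± 0.08). These 2 of the 10 genes were past the threshold, as were 4.32% of the 15936 genes tested. The count was 1 under the replicate block and without any single BCAA-free sham library, and 3 without BCAA-free TAC replicate 3, while the log2 change stayed within -1.07 to -0.96 for Epha4 and -0.40 to -0.35 for Efnb2. Groups did not overlap, with TAC lower, in Epha4, Efnb2, Efnb3 and Epha7, and in 12.7% of all genes tested. Efnb3 measured 84.5, 94.2 and 121.0 CPM in BCAA-free TAC hearts, against 123.2, 124.1 and 122.8 CPM in BCAA-free sham hearts (log2 -0.33 ± 0.11), so the third TAC library came close to the sham libraries while the other two lay well below. Epha7 measured 3.69, 4.95 and 4.91 CPM in BCAA-free TAC hearts and 5.61, 5.83 and 6.08 CPM in BCAA-free sham hearts (log2 -0.38 ± 0.15). The log2 changes of the other 6 genes lay between -0.27 (Ephb1) and +0.14 (Efna5). Nothing is read from these counts, since the contrast supplied the choice.

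Side by side, the log2 change of Epha4 with TAC was -1.03 on the BCAA-free diet and -0.51 on the control diet. Whether the TAC responses differ between the diets was not tested. The pair of TAC comparisons shares no library, and 7 of the 10 genes had the same sign in both, against 66.2% of 15498 genes. Ephb1, Ephb4 and Efna1 were the genes with opposite signs, and none of these had groups that stood apart in either comparison. Leaving out a single library turned the signs of Efna1, Ephb3 and Ephb4 on the BCAA-free diet and of Ephb1, Ephb3 and Ephb4 on the control diet. The median log2 change of the 10 genes was -0.22 on the BCAA-free diet and -0.25 on the control diet. The medians of all genes were -0.0030 and 0.0017. Of the 10 genes, 3 had a positive change on the BCAA-free diet and 4 on the control diet. The first median is from the contrast that chose Epha4, and neither was tested.

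**Figure D3:**
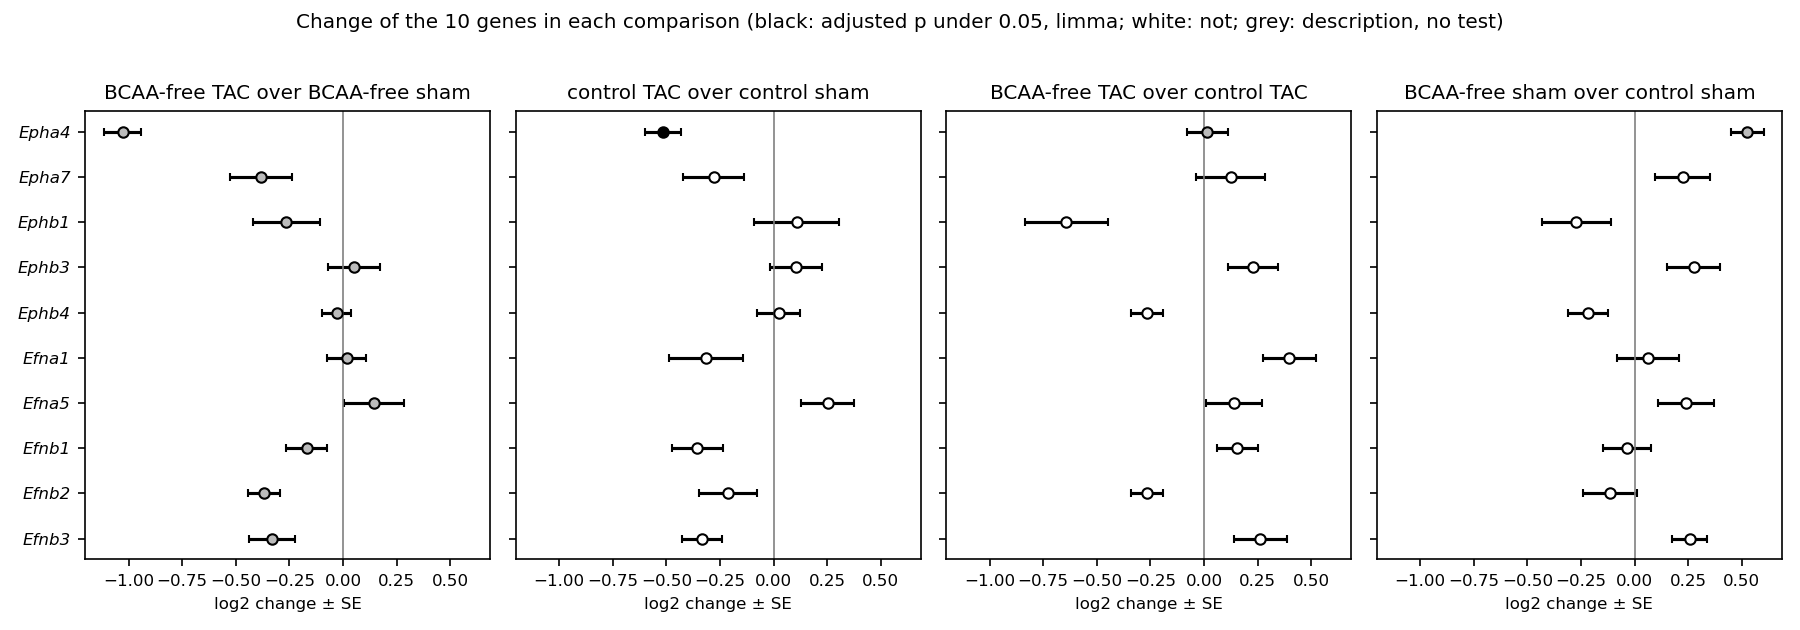
Log2 change ± SE of the 10 genes in each of the 4 comparisons (points right of 0 are higher in the group named first), with black points past an adjusted p of 0.05 by limma, white points not past it and grey points given as a description with no test. Epha4 in control TAC over control sham hearts, at -0.51, is the one black point, and its grey points stand at -1.03, 0.02 and +0.53.

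In sham hearts, the BCAA-free diet went with more Epha4. Its log2 change over control sham hearts was +0.53 ± 0.08 (1.44 times the level, given without a test because the BCAA-free sham libraries took part in its choice), and no BCAA-free sham library overlapped a control sham library. Epha4 was the 1 gene of the 10 past the threshold, against 2.81% of the 15596 genes tested, and that count is a description for the same reason. The other 9 genes were tested, though they too share the BCAA-free sham libraries with the contrast that chose Epha4, and 0 passed in limma, 0 in edgeR and 0 in DESeq2 (3 at an unadjusted p under 0.05 in limma, which 18.3% of all genes tested had).

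Efnb3 came nearest. It measured 123.2, 124.1 and 122.8 CPM in BCAA-free sham hearts, above 104.6, 91.1 and 117.4 CPM in control sham hearts (log2 +0.26 ± 0.08, limma adjusted p = 0.114, and 0.0116 without control sham replicate 3). Ephb4, the receptor for ephrin-B2, measured 59.9, 62.9 and 56.5 CPM in BCAA-free sham hearts, below 63.8, 82.2 and 64.6 CPM in control sham hearts (log2 -0.22 ± 0.09, limma adjusted p = 0.247). Epha7 was higher in every BCAA-free sham library, at 5.61, 5.83 and 6.08 CPM against 5.12, 4.50 and 5.45 CPM in control sham hearts (log2 +0.22 ± 0.13, limma adjusted p = 0.388). Among all genes tested, groups did not overlap in 11.5% as higher and in 11.8% as lower, and among the 10 in 3 and in 1. The remaining genes overlapped, with log2 changes of +0.28 ± 0.12 for Ephb3 (limma adjusted p = 0.266), +0.24 ± 0.13 for Efna5 (0.36), -0.27 ± 0.16 for Ephb1 (0.411), -0.11 ± 0.13 for Efnb2 (0.692), +0.06 ± 0.14 for Efna1 (0.868) and -0.03 ± 0.11 for Efnb1 (0.909).

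After TAC, the level of Epha4 was nearly the same on both diets, with a log2 change of +0.02 ± 0.10 in BCAA-free TAC over control TAC hearts, -0.03 to +0.09 without single libraries, and overlapping libraries. None of the 10 genes passed the threshold in limma or edgeR, 1 did in DESeq2 and 4 had an unadjusted p under 0.05, against 3.38% of the 16222 genes tested at the adjusted threshold and 19.9% at the unadjusted one. The 4 were Efnb2, Ephb4, Ephb1 and Efna1, which share the BCAA-free TAC libraries with the contrast that chose Epha4. In this comparison, leaving out control TAC replicates 2 and 3 brought the count over all genes to 0 with limma (1889 at an unadjusted p under 0.05).

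Both partners of the arterial and venous pair were lower on the BCAA-free diet in every library. Efnb2 measured 19.3, 20.9 and 19.9 CPM in BCAA-free TAC hearts, against 23.8, 24.2 and 24.4 CPM in control TAC hearts (log2 -0.27 ± 0.08, limma adjusted p = 0.0940). Its receptor Ephb4 measured 58.6, 57.2 and 60.9 CPM in BCAA-free TAC hearts, against 65.4, 72.7 and 74.9 CPM in control TAC hearts (log2 -0.26 ± 0.08, limma adjusted p = 0.0940). Neither passed. Without control TAC replicates 2 and 3 the changes were -0.24 (adjusted p = 0.524) for Efnb2 and -0.14 (adjusted p = 0.657) for Ephb4.

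Among the 10 genes, Ephb1 and Efna1 had the largest differences by diet after TAC. Ephb1 measured 3.42, 4.32 and 3.11 CPM in BCAA-free TAC hearts, against 4.38, 6.41 and 6.46 CPM in control TAC hearts (log2 -0.64 ± 0.19, limma adjusted p = 0.111). DESeq2 put Ephb1 past the threshold (adjusted p = 0.0417), as did the authors' deposited table (adjusted p = 0.0396), but without control TAC replicates 2 and 3 its change was -0.27 (limma adjusted p = 0.729). Efna1 measured 16.9, 20.0 and 19.8 CPM in BCAA-free TAC hearts, against 13.1, 13.3 and 17.0 CPM in control TAC hearts (log2 +0.40 ± 0.12, limma adjusted p = 0.118), and the groups overlapped at 16.9 and 17.0 CPM. Without the same libraries Efna1 had +0.53 (limma adjusted p = 0.275). Groups did not overlap, with the BCAA-free diet lower, in 3 of the 10 genes and in 13.0% of all genes tested.

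The remaining genes had overlapping libraries on the 2 diets after TAC. Their log2 changes were +0.26 ± 0.12 for Efnb3 (limma adjusted p = 0.279), +0.23 ± 0.12 for Ephb3 (0.324), +0.15 ± 0.10 for Efnb1 (0.419), +0.14 ± 0.13 for Efna5 (0.605) and +0.12 ± 0.16 for Epha7 (0.713). Without control TAC replicates 2 and 3, Efna5 and Epha7 were at -0.02 each (adjusted p = 0.983 and 0.986). The comparisons of diets in TAC and in sham hearts share no library, and 9 of the 10 genes had the same sign in both, against 63.8% of 15445 genes. Efnb1 was the exception. The signs in sham hearts of Efna1, Efnb1 and Efnb2 turned when a single library was left out, as did that of Epha4 in TAC hearts.

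Of the 7 family genes outside the 10, 0 passed the threshold by limma in the 3 comparisons that did not choose Epha4 (6 were tested in sham hearts and 7 in the others), where 2.81% to 5.34% of all genes did. The nearest was Epha2, an ephrin-A receptor of epithelia and vessels, which had a log2 change of -0.41 ± 0.10 in BCAA-free TAC over control TAC hearts (limma adjusted p = 0.0622, and 0.0283 to 0.491 over the alternatives). Efna2 had +0.70 ± 0.25 in BCAA-free sham over control sham hearts (limma adjusted p = 0.164). Depth limits the lowest of them most, with 2 to 30 reads per library for Epha3 and 8 to 25 for Efna4.

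Genes with a pattern most like that of Epha4 were sought over the 12 libraries among 11900 genes with a mean of at least 50 reads. Likeness was the root mean square difference of log2 CPM after each gene was centred on its own mean. On this measure 0 would be an identical pattern, and the median of the genes compared was 0.459. A gene with the same level in all 12 libraries would stand at 0.4345. The 6 nearest were Lingo3 (0.172), which encodes a membrane protein with leucine-rich repeats, Fgf16 (0.176), a fibroblast growth factor made in the heart, Clmn (0.193), which encodes calmin, Pde2a (0.196), a phosphodiesterase stimulated by cyclic GMP, Ripor2 (0.212) and Abcb1a (0.214), a drug efflux pump. Just outside were Ifit1bl2 (0.217) and Gramd4 (0.227). The 12 libraries share the 4 groups that shape Epha4, so likeness describes the pattern and is no test.

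Each of the 6 had its highest group mean in BCAA-free sham hearts. Fgf16 averaged 15.1 CPM in BCAA-free TAC and 23.8 CPM in BCAA-free sham hearts, and 12.7 CPM in control TAC and 18.5 CPM in control sham hearts. Lingo3 averaged 9.44 and 16.3 CPM in BCAA-free TAC and BCAA-free sham hearts, and 9.83 and 13.7 CPM in control TAC and control sham hearts. Abcb1a differed little between the sham groups, with 28.8 to 31.5 CPM in BCAA-free sham and 27.6 to 28.5 CPM in control sham libraries, where Epha4 differed by 1.44 times. Within the family the nearest to Epha4 were Epha7 (rank 190 of 11900, 0.307) and Efnb3 (rank 311, 0.326). Efnb1 (rank 1078, 0.3695) and Efnb2 (rank 1500, 0.3818) came next, against 0.4345 for a gene that did not vary. The other 5 ranked 4170 or lower.

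**Figure D4:**
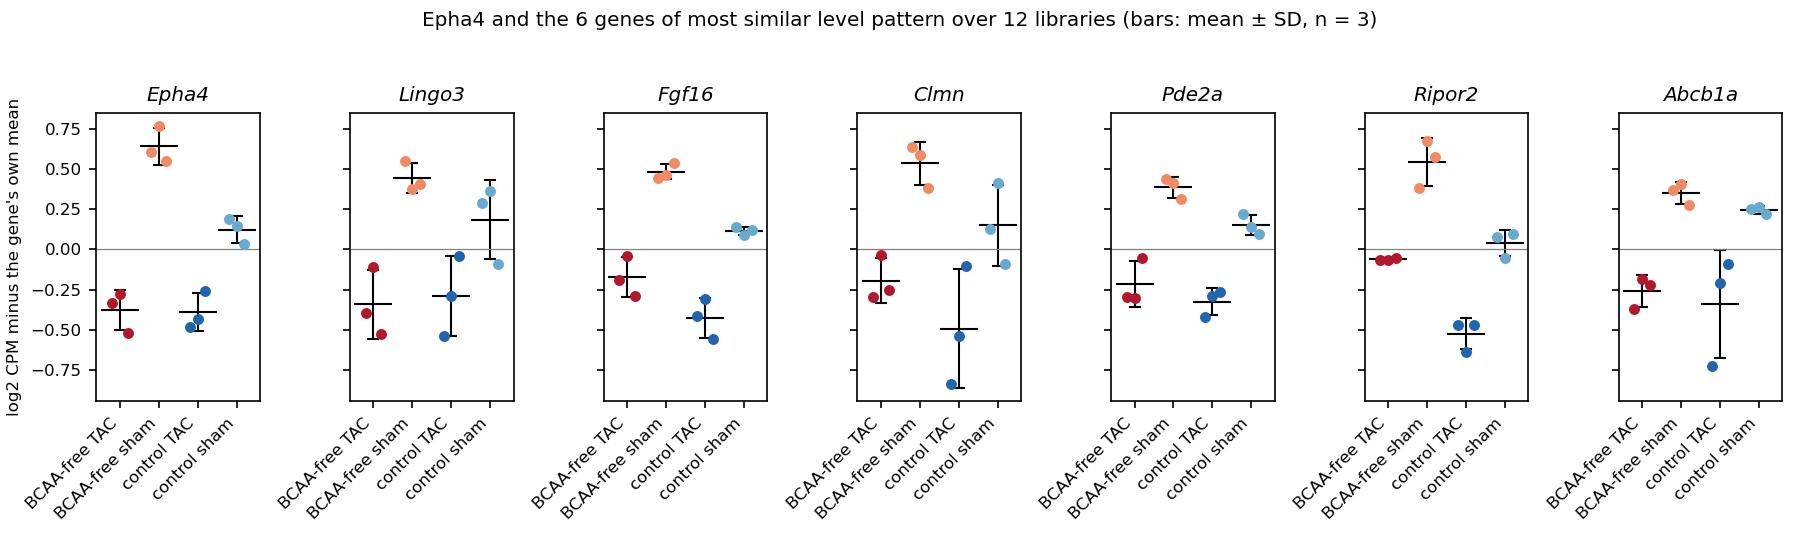
Log2 CPM minus the gene's own mean over the 12 libraries, for Epha4 and the 6 genes of most similar pattern, with points for libraries and bars for mean ± SD (n = 3). In all 7 genes the BCAA-free sham group has the highest mean, and in Fgf16 and Ripor2 the BCAA-free TAC libraries lie above the control TAC libraries.

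Kinases, adaptors and other proteins that carry Eph signals forward passed the threshold about as often as all genes did in the comparisons of diets. Of 32 such genes tested, 0 passed in control TAC over control sham hearts (23 positive, median log2 0.10, against 5.34% of all genes past the threshold). In each comparison of diets 0 rose and 1 fell, where 2.81% (sham hearts) and 3.38% (TAC hearts) of all genes passed. The one in sham hearts was Abl1, a cytoplasmic tyrosine kinase (log2 -0.37 ± 0.06, limma adjusted p = 0.0140), and the one in TAC hearts was Fyn, a Src family kinase that binds Eph receptors (log2 -0.38 ± 0.08, limma adjusted p = 0.0411). The call of Abl1 was lost without any single BCAA-free sham library (log2 -0.40 to -0.35, adjusted p = 0.0505 to 0.0832). That of Fyn was lost without any single library other than BCAA-free TAC replicate 1 (log2 -0.41 to -0.33, adjusted p = 0.0713 to 0.170) and without control TAC replicates 2 and 3 (log2 -0.32, adjusted p = 0.418). In TAC hearts 5 of the 32 had a positive log2 change by diet, with a median of -0.14 against 0.0043 for all genes tested. On the BCAA-free diet, given as a description, 2 of the 32 were past the threshold as higher and 1 as lower after TAC.

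Of 11 genes that act on the ephrin side, 1 passed in the 3 comparisons that did not choose Epha4, near the 2.81% to 5.34% of all genes. Cav1, the main coat protein of caveolae, had a log2 change of -0.62 ± 0.07 in BCAA-free TAC over control TAC hearts (limma adjusted p = 0.00410), and it kept its call without any single library but not without control TAC replicates 2 and 3 (-0.53, adjusted p = 0.15). Of the 12 or 13 proteases, presenilin complex subunits, ubiquitin ligases and phosphatases that cleave Eph receptors and ephrins or end their signals, 1 fell in the same comparisons, also near that share. This was Adam12, a metalloprotease, in BCAA-free sham over control sham hearts (log2 -1.94 ± 0.43, limma adjusted p = 0.0393), whose call was lost without any single library other than control sham replicate 3 (log2 -2.04 to -1.62, adjusted p = 0.110 to 0.156).

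Since Efnb2 and Ephb4 mark endothelium, its markers are given beside them. Endothelial markers, all 12 of 12 listed and none at 0 in a library, summed to 1192 to 1223 CPM in BCAA-free TAC and 1280 to 1400 CPM in BCAA-free sham libraries, and to 1241 to 1433 CPM in control TAC and 1369 to 1706 CPM in control sham libraries. The BCAA-free TAC libraries were thus the lowest group for this sum, as they were for Efnb2, while their Ephb4 overlapped that of BCAA-free sham libraries. In BCAA-free TAC over control TAC hearts Pecam1, an endothelial adhesion molecule, fell (log2 -0.34 ± 0.08, limma adjusted p = 0.0480). It was the only 1 of the 12 endothelial markers that passed there, and 2 of the 12 had a positive change (median -0.12). Of 12 arterial markers, Notch4 fell (-0.76 ± 0.11, limma adjusted p = 0.0102), as did Sox17 (-0.49 ± 0.09, limma adjusted p = 0.0230), while 5 of the 12 had a positive change (median -0.19). Of 10 venous and lymphatic markers, Nrp2 (-0.98 ± 0.13, limma adjusted p = 0.00616) and Aplnr (-1.36 ± 0.30, limma adjusted p = 0.0431) fell, while 4 of the 10 had a positive change (median -0.14). Of all genes tested, 3.38% passed in this comparison. None of these 5 calls held without control TAC replicates 2 and 3 (adjusted p = 0.154 to 0.475), where the log2 changes were -0.24 for Pecam1, -0.53 for Notch4, -0.49 for Sox17, -0.85 for Nrp2 and -1.12 for Aplnr. Without single libraries, Pecam1 lost its call in all 6 cases, Aplnr and Sox17 in 5 and Notch4 in 2, while Nrp2 kept it. The 12 arterial markers summed to 290 to 302 CPM in BCAA-free TAC and 348 to 363 CPM in control TAC libraries, and their part in the levels of Efnb2 and Ephb4 was not tested.

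Markers were set beside Epha4 in the same way. In control TAC over control sham hearts the endothelial gene Tek fell (log2 -0.38 ± 0.08, limma adjusted p = 0.0280, and log2 -0.40 to -0.32 with adjusted p of 0.0611 to 0.0776 without 1 of 4 libraries, namely control TAC replicates 1 and 2 and control sham replicates 2 and 3), and among 12 endothelial markers 1 had a positive change (median -0.15, against 0.0017 for all genes). T cell markers, 7 of 8 listed in all libraries and 2 of these at 0 in at least 1 library, summed to 10.7, 1.82 and 2.04 CPM in BCAA-free TAC libraries, against 7.91, 11.9 and 11.7 CPM in BCAA-free sham libraries. They summed to 2.04, 2.07 and 2.42 CPM in control TAC libraries, against 5.12, 4.50 and 1.44 CPM in control sham libraries. In BCAA-free TAC replicate 1 the T cell sum lay within the range of the BCAA-free sham libraries, and Epha4 was 25.8 CPM. The part of T cells in the level of Epha4 was not tested.

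Other marker lists differed in how they followed TAC. Schwann cell and nerve markers, 8 of 9 listed, summed to 19.1 to 22.1 CPM in BCAA-free TAC and 21.2 to 23.8 CPM in BCAA-free sham libraries, which overlap, and to 17.8 to 19.8 CPM in control TAC and 21.8 to 25.5 CPM in control sham libraries, which do not. Macrophage markers, 10 of 10 listed, were higher after TAC on the BCAA-free diet (371 to 445 CPM in BCAA-free TAC, 203 to 222 CPM in BCAA-free sham) and overlapped on the control diet (285 to 441 CPM in control TAC, 273 to 292 CPM in control sham). Fibroblast markers, 12 of 12 listed, summed to 2498 to 3598 CPM in BCAA-free TAC and 2029 to 2146 CPM in BCAA-free sham libraries, and to 2364 to 3252 CPM in control TAC and 2314 to 2536 CPM in control sham libraries. Cardiomyocyte markers averaged 106749 CPM in BCAA-free TAC and 104456 CPM in BCAA-free sham hearts, and 95335 CPM in control TAC and 101588 CPM in control sham hearts. Mural cell markers, 9 of 9 listed, summed to 1236 to 1416 CPM in BCAA-free TAC and 1380 to 1491 CPM in BCAA-free sham libraries, which overlap, and to 1164 to 1236 CPM in control TAC and 1280 to 1382 CPM in control sham libraries, which do not. Their mean, like those of Epha4 and of the T cell markers, was highest in BCAA-free sham hearts.

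By the test in control TAC over control sham hearts, 1 mural marker rose and 2 fell of 9, 4 fibroblast markers rose and 2 fell of 12, and 1 of 10 macrophage markers rose. In the same comparison 2 of 7 Schwann cell and nerve markers fell, 1 of 12 arterial markers fell, and 1 of 9 venous and lymphatic markers rose and 1 fell, while 0 of 10 cardiomyocyte and 0 of 5 T cell markers passed (5.34% of all genes passed). In BCAA-free sham over control sham hearts, 6 of 12 fibroblast and 3 of 10 macrophage markers fell, as did 1 of 12 endothelial, 1 of 12 arterial and 1 of 10 cardiomyocyte markers. There 1 of 9 mural, 1 of 8 T cell and 2 of 5 adipocyte markers rose (2.81% of all genes passed). Of 9 venous and lymphatic and 8 Schwann cell and nerve markers, 0 passed there. Adipocyte markers summed to 7.77 to 22.8 CPM in BCAA-free sham and 3.62 to 5.53 CPM in control sham libraries. After TAC they summed to 6.44 to 34.0 CPM on the BCAA-free diet and 3.14 to 11.1 CPM on the control diet. In control TAC over control sham hearts 0 of 4 adipocyte markers passed. The part of these cells in the level of Epha4 was not tested.

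**Figure D5:**
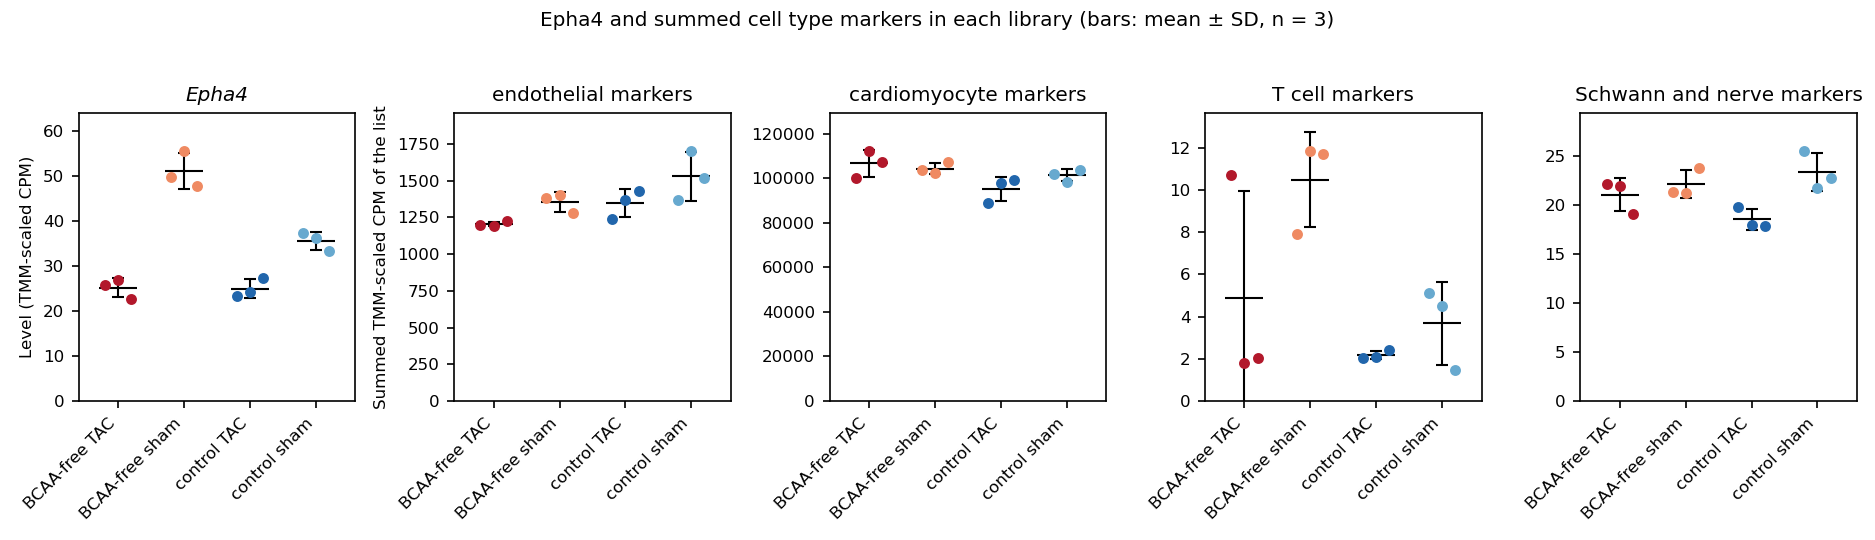
Epha4 (TMM-scaled CPM) and the summed CPM of endothelial, cardiomyocyte, T cell, and Schwann and nerve markers in each library, with points for libraries and bars for mean ± SD (n = 3, with axes from 0, where 1 error bar of the T cell panel is cut). Epha4 separates TAC from sham libraries on both diets, and its fall on the BCAA-free diet is what chose it. The endothelial sum separates them on the BCAA-free diet and overlaps on the control diet. The Schwann and nerve sum overlaps on the BCAA-free diet and separates them on the control diet. In the T cell panel, 1 BCAA-free TAC library has 10.7 CPM.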

How the data were processed

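Polyadenylated RNA of hearts was sequenced, and the deposited tables give 1 comparison each. Per the submitters' processing notes, the tools were Trimmomatic 0.36, STAR 2.5.2b, Subread 1.5.2 and DESeq2, with the build GRCm38. Strand handling is not given in the sources used here. Per the file headers, each table holds normalised read values for 6 libraries, here called signal, with the authors' log2 fold changes and the authors' p-values and adjusted p-values. The deposited signal values are reads divided by a size factor set within each table. Whole reads were recovered from them (100% of values whole within a tolerance of 0.001), and each library's reads were the same in the tables that share it. The 4 tables list 15613 to 16234 genes.

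The main test was limma 3.58.1 (trend) in R 4.3.3 on log2(value + 4), within each table, for genes whose mean reached 10 over its libraries, with Benjamini-Hochberg adjustment over all genes tested and a threshold of 0.05. Fold changes on this scale understate the change of low genes. On the recovered reads, edgeR 4.0.16 called 668 genes and DESeq2 1.42.0 called 1159 for TAC on the BCAA-free diet, 731 and 1544 for TAC on the control diet, 492 and 1181 for the diets after TAC, and 464 and 826 for the diets after sham surgery. Levels are CPM of recovered reads with TMM factors from 15665 genes with reads in all 12 libraries. The scripts were tested on simulated data. Other alternatives were the pseudocount, the filter, the scaling, a replicate block and the libraries left out. The depth of 29929161 to 46101244 reads and 3 libraries per group limit the precision.

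Coordinates and exon lengths are from GENCODE M21, in which 16475 of 16514 gene identifiers were found, and promoters from RefSeq, matched by symbol for 9 of the 10 genes. The members and lists were chosen with earlier results of these data known. All 10 members are named, as are the other listed genes of the family. Of the pathway lists, up to 3 genes past the threshold with the smallest p were to be named in comparisons that did not choose Epha4. The same rule was set for marker lists, but it was followed in full only for vascular markers by diet in TAC hearts. In TAC on the control diet only Tek is named. Other marker calls, such as that of the arterial Nrp1 there, are given as counts. The genes most like Epha4 are the 6 nearest by the root mean square difference of centred log2(CPM + 0.1).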

Additional observations from a re-analysis of the deposited data

How the results depend on the processing

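Of the tested log2 changes of the 10 genes, 419 of 449 values recomputed under alternatives kept their direction and their side of the threshold, 8 passed the threshold newly, 2 no longer passed and 20 turned sign. Of 171 values described without a test, 10 turned sign, all with 1 library left out, over ranges of -0.0303 to 0.1597 for Ephb3, -0.0675 to 0.0071 for Ephb4 and -0.0221 to 0.0893 for Efna1 in TAC on the BCAA-free diet and -0.0339 to 0.0854 for Epha4 by diet in TAC hearts. The filter over all 6 libraries with libraries left out was chosen after seeing the data, as were the alternatives for the other named genes. Counts of the 10 genes moved with DESeq2 to 3 in TAC on the control diet and 1 by diet in TAC hearts. With single libraries left out they ranged over 1 to 2 in TAC on the control diet, 1 to 3 in TAC on the BCAA-free diet and 1 to 2 by diet in sham hearts. Without control TAC replicates 2 and 3, with the filter over all 6 libraries, 0 remained past the threshold in TAC on the control diet (1 at an unadjusted p under 0.05 in limma). The lone control TAC library is then assumed to vary like the others.

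Over all genes, the count for TAC on the BCAA-free diet was 688, 1159 with DESeq2 and 106 to 1199 with 1 library left out. For TAC on the control diet these were 848, 1544 and 300 to 659, for the diets after TAC 548, 1181 and 138 to 1044, and for the diets after sham surgery 438, 826 and 68 to 1020. Without control TAC replicate 3 and with the filter over all 6 libraries, limma called 91 genes in TAC on the control diet and 100 by diet in TAC hearts. Without control TAC replicates 2 and 3 it called 840 genes, or 180 with that filter, in TAC on the control diet. By diet in TAC hearts it called 0 with either filter (1889 and 1750 at an unadjusted p under 0.05). The cause was not tested.

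Signs turned without control TAC replicates 2 and 3 under either filter for Ephb1 (-0.2547) and Ephb4 (-0.0909) in TAC on the control diet and for Epha7 (-0.0207) and Efna5 (-0.0186) by diet in TAC hearts. For Ephb4 in TAC on the control diet it was -0.0161 without control TAC replicate 3 under either filter. With single libraries left out, the ranges of TAC on the control diet were -0.0557 to 0.29 for Ephb1, -0.0082 to 0.1986 for Ephb3 and -0.0404 to 0.1408 for Ephb4. By diet in sham hearts they were -0.0512 to 0.2666 for Efna1, -0.1748 to 0.0656 for Efnb1 and -0.271 to 0.0445 for Efnb2. None of the turned values passed the threshold.

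The replicate block gave 1 of the 10 genes in TAC on the BCAA-free diet and 2 by diet in TAC hearts (Ephb1, adjusted p = 0.0472, and Efna1, 0.0419, by limma), and 713 and 1275 genes by diet in sham and in TAC hearts. Libraries of the same number had correlations of -0.0885 to 0.2205 in their deviations from the group means. Not all were over 0.1, so the numbers were not taken to pair the libraries. The highest was that of the replicates numbered 1 by diet in TAC hearts, where the others were -0.0104 and 0.0663. Whether libraries were paired in that comparison alone was not tested. Genes with few reads, such as Epha3 and Efna4, are limited by depth.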
